A study of Mus musculus with 24 samples.

Results

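The livers of lipodystrophic and control mice that had all received FGF21 were compared across 23972 genes, in 11 of the 24 liver libraries of the study. The libraries were chosen by their labels alone, as those marked with the treatment Rescue, read here as FGF21, with genotype Lmna.KO (8 libraries, Lmna ADKO) or Lmna.WT (3 libraries, controls). Lmna ADKO mice carry floxed Lmna alleles (fl/fl) and Adipoq-Cre, which deletes Lmna, the gene of lamin A/C, in adipocytes, and the controls carry the same floxed alleles without Cre. All animals were female, on a C57BL/6J background and 12 to 14 weeks old at the start. They were housed at 22°C and fed a 60% fat diet for 4 weeks before an adeno-associated virus encoding FGF21 was given, and were euthanized 8 weeks later. The other 13 libraries, 6 Lmna ADKO and 7 control, came from animals given vehicle, and no library is shared between the 2 treatments. The comparison answers how the lipodystrophic liver differs from the control liver when both have received FGF21. The study reports that Lmna ADKO mice had more endogenous FGF21 in plasma and a disproportionate rise after the virus. Effects of genotype and of the level of FGF21 therefore cannot be told apart here.

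Adipocytes store triacylglycerol and secrete leptin and adiponectin, and when they are lost, fat is deposited in the liver, insulin action fails, and the liver becomes steatotic. FGF21 is a hormone made mainly by the liver, which acts on cells that carry the co-receptor beta-klotho (Klb) together with an FGF receptor. Hepatocytes carry intact Lmna in this model, because the Adipoq promoter drives Cre in adipocytes. The differences described here are therefore measured in an organ that was not itself the target of the deletion.

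Between 19940258 and 21510054 reads were counted on genes per library, so the floor of 3 counts used for detection was worth 0.139 to 0.15 CPM, the counts scaled to library size. Libraries are numbered within each group by animal number. ADKO library 7 and control library 3 stood apart. In each library, log2 CPM was taken relative to the gene's median over all libraries of the same genotype. Its slope on log2 exonic length was -0.331 in ADKO library 7 and -0.289 in control library 3. In the other 9 it was -0.109 to 0.128. Transcripts of the mitochondrial genome took 9.0% and 7.45% of the counts of these 2 libraries, against 4.73% to 6.43% in the other 9. Calls below are given with and without these 2 libraries. A gene was called at an adjusted p below 0.05 and a fold above 1.5 either way, by edgeR's quasi-likelihood test on all 4 groups with Benjamini-Hochberg adjustment, and is named held when it was called in the same direction both with all 11 libraries and without the 2. Bulk liver RNA cannot tell a change in the number of cells of a type from a change in RNA per cell.

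Of the gene lists, sterol synthesis had the most members higher in lipodystrophic livers after FGF21 (13 of 25) and drug-metabolizing cytochromes P450 the most lower (13 of 28). In all, 387 genes were higher (1.61% of those tested) and 303 were lower (1.26%) in ADKO. Without the 2 libraries, 215 were higher and 167 lower. Held genes numbered 180 higher (0.751%) and 133 lower (0.555%), so 313 genes were 45.4% of the 690 calls made with all libraries and 81.9% of the 382 made without the 2. Leaving out control library 3 alone gave 194 higher and 145 lower, whereas leaving out ADKO library 7 alone gave 501 and 648. Called in all 4 of these fits were 248 genes, 146 higher and 102 lower. The values of the 2 groups did not overlap for 156 of the held higher genes and for 90 of the held lower genes, beside 1282 of all genes (5.35%). With all libraries, 4.69% of the 12493 genes averaging above 0 in log2 CPM were called in either direction. Lists below with a share near that are not set apart by their counts.

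**Figure D1:**
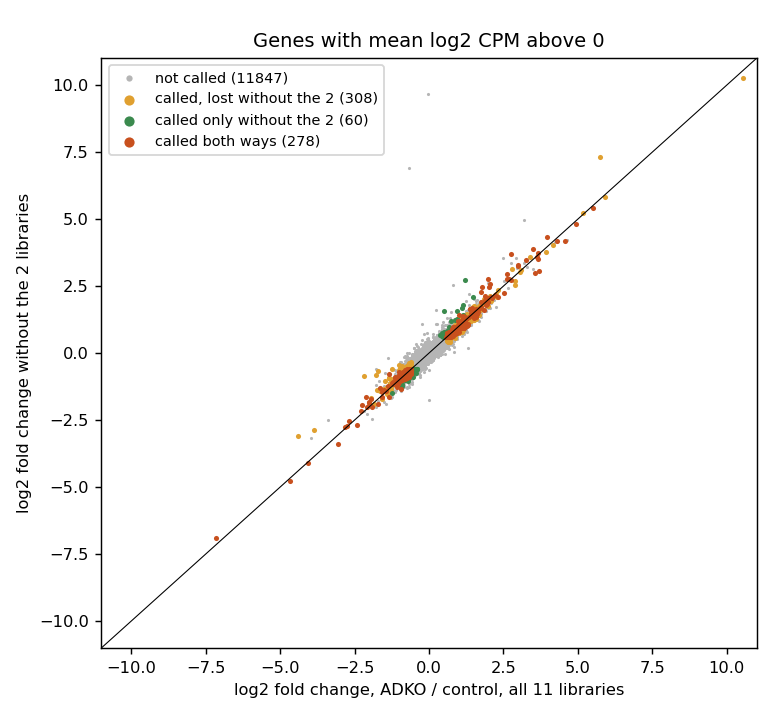
Each point is 1 of the 12493 genes whose log2 CPM averaged above 0, placed by its log2 fold change (ADKO over control, both with FGF21) with all 11 libraries on the x axis and without ADKO library 7 and control library 3 on the y axis, with the line of equal values. The 278 genes called both ways lie along the line, and 308 were called only with all libraries and 60 only without the 2.

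Among the 377 genes that lost their call without the 2 libraries, all kept their direction. The median ratio of their log2 fold change without the 2 to that with them was 0.879, against 0.993 for held genes. Lost and held genes were split by the fit without the 2, and that split itself favours a lower ratio in the lost genes. Of the 377, 296 still had a fold change above 1.5, and 19 still had an adjusted p below 0.05 with a smaller fold. The fit without the 2 libraries rests on 2 controls. The median standard error of the log2 fold change of the held genes was 0.199 with all libraries and 0.219 without the 2. Held genes had to be called in both fits, so these medians do not describe the precision lost for other genes. Across those 12493 more highly expressed genes, the Spearman correlation of log2 fold change and exonic length was 0.213 with all libraries and 0.027 without the 2 (genes are not independent replicates).

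The targeted gene and the treatment were checked first. Lmna stood at 16.7, 17.9 and 20.1 CPM in controls and at 19.6 to 33.7 CPM (median 22.6) in ADKO, with a log2 fold change of 0.44 ± 0.151 (SE, adjusted p = 0.107, and 0.157 without the 2 libraries). Lmna was thus measured in every liver, and these counts do not check the genotype, since the deletion is in adipocytes. Fgf21 was at 3.14, 3.80 and 7.40 CPM in controls and at 2.19 to 9.99 CPM in ADKO (adjusted p = 0.902, and 0.722 without the 2 libraries). With vehicle, Fgf21 was at 1.9 to 10.8 CPM in controls and at 4.63 to 10.6 CPM in ADKO. The Fgf21 counts do not set the treated animals apart, and the treatment is taken from the label. The study measured FGF21 in plasma and reports a rise after the virus. Klb, the co-receptor, was at 36.9, 30 and 20.1 CPM in controls and 20.2 to 43.0 CPM in ADKO (adjusted p = 0.880, and 0.848). None of the 15 genes of FGF21 receptors and ERK feedback was called in either direction, and their median log2 fold change was -0.145, or -0.255 without the 2 libraries.

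The largest held differences that did not overlap between groups, among protein-coding genes averaging 0 or more in log2 CPM, are given for 8 higher and 7 lower genes. Themis, a signalling protein known from developing T cells, was at 0.285, 0.0999 and 0.175 CPM in controls and at 1.45 to 16.9 CPM (median 4.24) in ADKO. Its log2 fold change was 4.94 ± 0.914 (adjusted p = 0.00353), and 4.83 without the 2 libraries (adjusted p = 0.0418). Of 8 T and NK cell markers 0 were called, and their summed level was 9.39 to 13.8 CPM in controls and 7.06 to 17.6 CPM in ADKO.

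Cidec, which enlarges lipid droplets by fusing them, was at 3.33, 1.90 and 6.70 CPM in controls and at 12.8 to 162 CPM (median 42.4) in ADKO. All 8 ADKO libraries exceeded the highest control, control library 3, and the 2 highest were ADKO libraries 3 and 7. Its difference was 15.5-fold (log2 fold change 3.95 ± 0.764, adjusted p = 0.00507) and 20.2-fold without the 2 libraries (adjusted p = 0.0207). The gene (ENSMUSG00000030278) lies at chr6:113424634-113435760 on the minus strand of GRCm38.

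Slc10a2, the sodium-dependent bile acid transporter of ileum and cholangiocytes, was at 2.57, 1.85 and 1.81 CPM in controls and at 15.6 to 32.8 CPM (median 27.2) in ADKO. Its values formed 2 separate ranges, and its log2 fold change was 3.65 ± 0.456 (adjusted p = 5.9e-05) and 3.51 without the 2 libraries (adjusted p = 0.00325). The summed level of cholangiocyte markers was 39.9 to 48.6 CPM in controls and 56.0 to 264 CPM (median 72.6) in ADKO, with 0 of 8 called. Most of that sum was Spp1, a secreted phosphoprotein also on the lipid-associated macrophage list, at 28.6 to 224 CPM (adjusted p = 0.0526). Krt7, Krt19, Epcam, Cdh1 and Cldn7 had log2 fold changes of 0.185 to 0.438. The part of cholangiocytes in the difference of Slc10a2 was not tested. Gpc1, a glypican that carries heparan sulfate, was at 3.90, 3.15 and 4.13 CPM in controls and at 35.4 to 55.2 CPM in ADKO, a 12.5-fold difference (adjusted p = 0.000968, and 0.0120 without the 2 libraries). Aqp4 (a water channel), Phospho1 (a phosphatase of phosphocholine), Pls1 (an actin-bundling plastin) and Gprc5b (an orphan receptor) completed the 8, with differences of 12.3-, 11.7-, 11.2- and 9.45-fold. For Pls1 and Gprc5b, ADKO library 3 lay far above the other 7, at 10.5 and 16.1 CPM, but the lowest ADKO values, 1.48 and 5.47 CPM, still exceeded the controls.

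**Figure D2:**
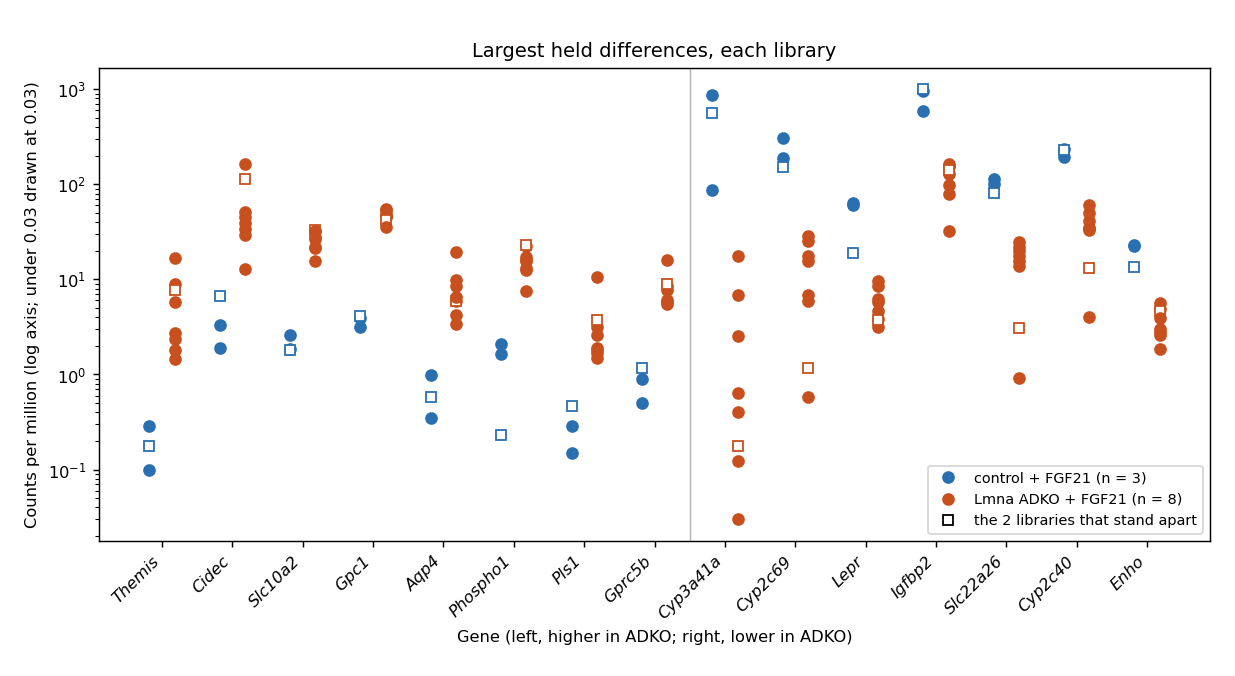
CPM on a log axis of 8 higher and 7 lower held genes among those with the largest non-overlapping differences, 1 point per library, blue for the 3 controls and orange for the 8 ADKO livers given FGF21, with open squares for control library 3 and ADKO library 7. In each gene every ADKO value lies on 1 side of all 3 controls, and the controls of Cyp3a41a span 86.7 to 869 CPM (its value of 0 in ADKO is drawn at the foot of the axis).

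The lower genes were led by hepatocyte enzymes and receptors. Enho, which encodes the secreted peptide adropin, was at 23.1, 22.5 and 13.5 CPM in controls and at 1.87 to 5.71 CPM (median 3.48) in ADKO. It was 5.37-fold lower (log2 fold change -2.42 ± 0.293, adjusted p = 3.78e-05) and lay lower still without the 2 libraries (log2 fold change -2.70, adjusted p = 0.000252). Lepr, the leptin receptor, was at 60.7, 63.1 and 19.0 CPM in controls and at 3.19 to 9.53 CPM (median 5.22) in ADKO, with the lowest control in control library 3. Its log2 fold change was -3.06 ± 0.538 with all libraries and -3.38 without the 2 (adjusted p = 0.00260 and 0.00626). Igfbp2, a binding protein of insulin-like growth factors, was at 593, 955 and 1002 CPM in controls and at 31.9 to 165 CPM in ADKO (7.11-fold lower, adjusted p = 0.000393). Slc22a26, an organic anion transporter, was 6.71-fold lower (adjusted p = 0.00905).

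Cytochromes P450 oxidize drugs, steroids and fatty acids in hepatocytes. Of 28 P450 enzymes and their regulators, 13 were lower and 1 was higher, and 9 and 1 were held, with a median log2 fold change of -0.865 (-0.679 without the 2 libraries) beside 0.018 over all genes tested. Cyp2c69 was at 308, 188 and 152 CPM in controls and at 0.581 to 28.9 CPM (median 11.2) in ADKO, 16.9-fold lower (adjusted p = 0.00285, and 0.00812 without the 2 libraries). ADKO libraries 3 and 7 were the 2 lowest, at 0.581 and 1.18 CPM. Cyp2c40 was at 237, 192 and 227 CPM in controls and at 4.06 to 61.0 CPM in ADKO (6.44-fold lower, adjusted p = 0.00374), and Cyp1a2, which metabolizes caffeine, at 320, 321 and 298 CPM and at 109 to 204 CPM (2.17-fold lower, adjusted p = 0.00286, and 0.0304 without the 2 libraries). Cyp2a4, a steroid hydroxylase, was at 732, 711 and 1111 CPM and at 125 to 289 CPM (4-fold lower, adjusted p = 0.000428).

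The Cyp3a genes spread widely among controls. Cyp3a41a was at 869, 86.7 and 566 CPM in controls and between 0 and 17.8 CPM in ADKO (log2 fold change -7.14 ± 1.46, adjusted p = 0.00803), and Cyp3a16 at 95.9, 22 and 51.7 CPM in controls and at most 0.788 CPM in ADKO (adjusted p = 0.000221). Cyp3a44 was at 45.6, 2.25 and 5.01 CPM and at most 0.344 CPM in ADKO (adjusted p = 5.06e-05). All 3 were held, and their direction was shared by every ADKO library. Near-identical copies in the Cyp3a, Cyp2a and Cyp2c families can split reads, so the value of a single copy is uncertain. Cyp3a59, by contrast, was higher at 38.4 to 62.6 CPM against 17.0 to 37.3 CPM (adjusted p = 0.0188), and Cyp3a11 was not called (adjusted p = 0.0956, and 0.100 without the 2 libraries). Nr1i3, the xenobiotic receptor CAR, was at 680, 479 and 841 CPM in controls and at 187 to 334 CPM in ADKO (adjusted p = 0.00233), with an adjusted p of 0.0585 without the 2 libraries. Cyp2a22 likewise lost its call (adjusted p = 0.00198 and 0.0619), as did Cyp2e1 and Cyp2c37.

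Of 15 lipid droplet genes 3 were higher, 1 was lower and 11 were not called, with a median log2 fold change of 0.136, and Cidec alone was held. Plin4, a droplet coat protein, was at 25.8, 32.7 and 37.8 CPM in controls and at 51.6 to 112 CPM in ADKO, without overlap (adjusted p = 0.00986), and missed the threshold without the 2 libraries (adjusted p = 0.0576). G0s2, an inhibitor of the triacylglycerol lipase ATGL, was the lower one, and its call rested on control library 3: the controls were at 39.9, 137 and 520 CPM and ADKO at 31.4 to 70.9 CPM, and its log2 fold change moved from -2.17 (adjusted p = 0.00854) to -0.84 (adjusted p = 0.413). Cidea, a paralog of Cidec, chosen here after its values were seen, had 0 counts in all 3 controls and 15 to 686 counts in ADKO. The ADKO mean of 8.79 CPM (median 2.96) is at least 61.2-fold above a floor of 3 counts per control library. ADKO libraries 3 and 7 were the highest, at 28.5 and 20.7 CPM. The call of Cidea was lost without the 2 libraries (adjusted p = 0.0223 and 0.111).

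Fatty acid uptake and PPARG genes gave 4 higher and 1 lower of 14, with 3 and 1 held. Cd36, a fatty acid translocase, was at 111, 127 and 132 CPM in controls and at 211 to 345 CPM (median 252) in ADKO. Its ranges were far apart, and the log2 fold change was 1.09 ± 0.183 with all libraries and 1.17 without the 2 (adjusted p = 0.00079 and 0.00250). Mogat1, a monoacylglycerol acyltransferase, was at 1.19, 1.70 and 2.62 CPM and at 5.18 to 19.8 CPM (6.20-fold higher, adjusted p = 0.00244), and Pparg, the transcription factor of lipid storage, was the other held higher gene. Slc27a1, a fatty acid transport protein, was lower, at 12.3, 23.3 and 19.5 CPM against 4.94 to 12.7 CPM, and its ranges met (adjusted p = 0.0126, and 0.0391 without the 2 libraries).

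Among 20 genes of fatty acid synthesis 6 were higher and 1 lower, 3 and 1 held, with a median log2 fold change of 0.800 (0.623 without the 2 libraries). Elovl5, an elongase of polyunsaturated fatty acids, was at 292, 449 and 277 CPM in controls and at 688 to 1403 CPM (median 1130) in ADKO, 3.15-fold higher (adjusted p = 4.14e-05, and 0.00239 without the 2 libraries). Fads2, a desaturase, was 2.71-fold higher (adjusted p = 0.00255, and 0.0129) and Pgd, a source of NADPH, 1.99-fold higher (adjusted p = 0.00264, and 0.0424). The lower one was Mlxipl, which encodes the carbohydrate response factor ChREBP. Scd1, the main hepatic stearoyl-CoA desaturase, chosen here after its values were seen, was at 204, 619 and 266 CPM in controls and at 4045 to 8890 CPM in ADKO. No value overlapped, yet its adjusted p was 0.00673 with all libraries and 0.0563 without the 2, with log2 fold changes of 4.16 and 4.04. Gpam, the first enzyme of glycerolipid synthesis, was the 1 gene of 15 in triglyceride assembly that was called and held (2.12-fold higher, adjusted p = 0.00248).

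Sterol synthesis had the highest share of called members of the 38 lists. Of 25 sterol synthesis genes and SREBP2 targets, 13 (52.0%) were higher and 0 lower, beside 2.88% of all genes in either direction, and 6 were held, among them Acat2, Lss, Mvd and Hmgcs1. The median log2 fold change of the list was 1.114 with all libraries and 1.165 without the 2, and 24 and 23 of 25 values were positive. SREBP2 is known to bind sterol regulatory elements, often beside CCAAT boxes. The 300 bases around the start (250 before, 50 after) are shown for 3 held genes, from RefSeq on GRCm38.p6, 5′ to 3′ on the gene's strand, with CCAAT (or ATTGG on the opposite strand) and TCACNCCAC in capitals. The windows are chr13:119690101-119690400 (plus strand) for Hmgcs1, chr8:122443373-122443672 (minus) for Mvd and chr10:76531355-76531654 (plus) for Lss. Hmgcs1 makes HMG-CoA, Mvd makes isopentenyl diphosphate and Lss cyclizes squalene epoxide.
Hmgcs1: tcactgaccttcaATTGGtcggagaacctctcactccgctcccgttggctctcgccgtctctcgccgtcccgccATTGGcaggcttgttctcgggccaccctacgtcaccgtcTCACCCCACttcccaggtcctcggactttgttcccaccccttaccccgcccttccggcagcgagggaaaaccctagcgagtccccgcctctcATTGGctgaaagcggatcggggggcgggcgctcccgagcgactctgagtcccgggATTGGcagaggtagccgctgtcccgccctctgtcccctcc
Mvd: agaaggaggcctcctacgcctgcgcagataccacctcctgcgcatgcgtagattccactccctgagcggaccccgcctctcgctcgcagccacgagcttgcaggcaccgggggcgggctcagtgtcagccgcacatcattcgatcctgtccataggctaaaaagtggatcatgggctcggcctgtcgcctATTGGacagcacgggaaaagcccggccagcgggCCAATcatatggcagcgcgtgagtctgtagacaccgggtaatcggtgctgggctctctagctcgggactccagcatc
Lss: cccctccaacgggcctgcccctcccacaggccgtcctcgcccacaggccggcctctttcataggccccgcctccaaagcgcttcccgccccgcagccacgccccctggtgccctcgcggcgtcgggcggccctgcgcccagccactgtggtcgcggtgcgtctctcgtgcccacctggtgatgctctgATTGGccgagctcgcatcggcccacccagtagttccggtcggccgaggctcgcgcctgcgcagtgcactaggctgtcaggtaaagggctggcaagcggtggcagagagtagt
Of the 25 genes, 17 had a promoter in the table, and 16 of these (94.1%) held CCAAT on either strand in at least 1 promoter, against 41.0% of 26742 genes. Acat2 was the exception. TCACNCCAC was found in 1 of 17 (Hmgcs1) and in 1.43% of all, and no match says only that these letters are not in the window. A peroxisome proliferator element was found in 0 of the 17 and in 0.456% of all. CCAAT was also in 17 of 21 mitosis genes (81%), a list with 0 called. It was in 7 of 11 fatty acid uptake genes and 5 of 14 lipid droplet genes. The part of SREBP2 in the differences of the sterol genes was not tested.

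Hmgcs1 was at 35.4 to 88.0 CPM in controls and at 152 to 322 CPM in ADKO (log2 fold change 1.84, adjusted p = 0.0037, and 0.0418 without the 2 libraries). Mvd was at 4.04, 3.85 and 3.44 CPM in controls and at 11.5 to 26.5 CPM in ADKO (4.36-fold higher, adjusted p = 0.00338, and 0.0419). Lss was at 20.6, 16.6 and 17.9 CPM and at 32.5 to 59.7 CPM (2.25-fold higher, adjusted p = 0.00317, and 0.0432). The ranges of these 3 genes did not overlap. Acat2, an acetyl-CoA acetyltransferase, was 2.16-fold higher (adjusted p = 0.00141, and 0.0104). Fdps, Dhcr7, Insig1, Mvk, Hsd17b7 and Sc5d lost their calls without the 2 libraries, with log2 fold changes that moved to between 0.72 and 2.08. Srebf2, the gene of SREBP2 itself, was not called (log2 fold change 0.29, adjusted p = 0.380, and 0.696 without the 2 libraries).

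**Figure D3:**
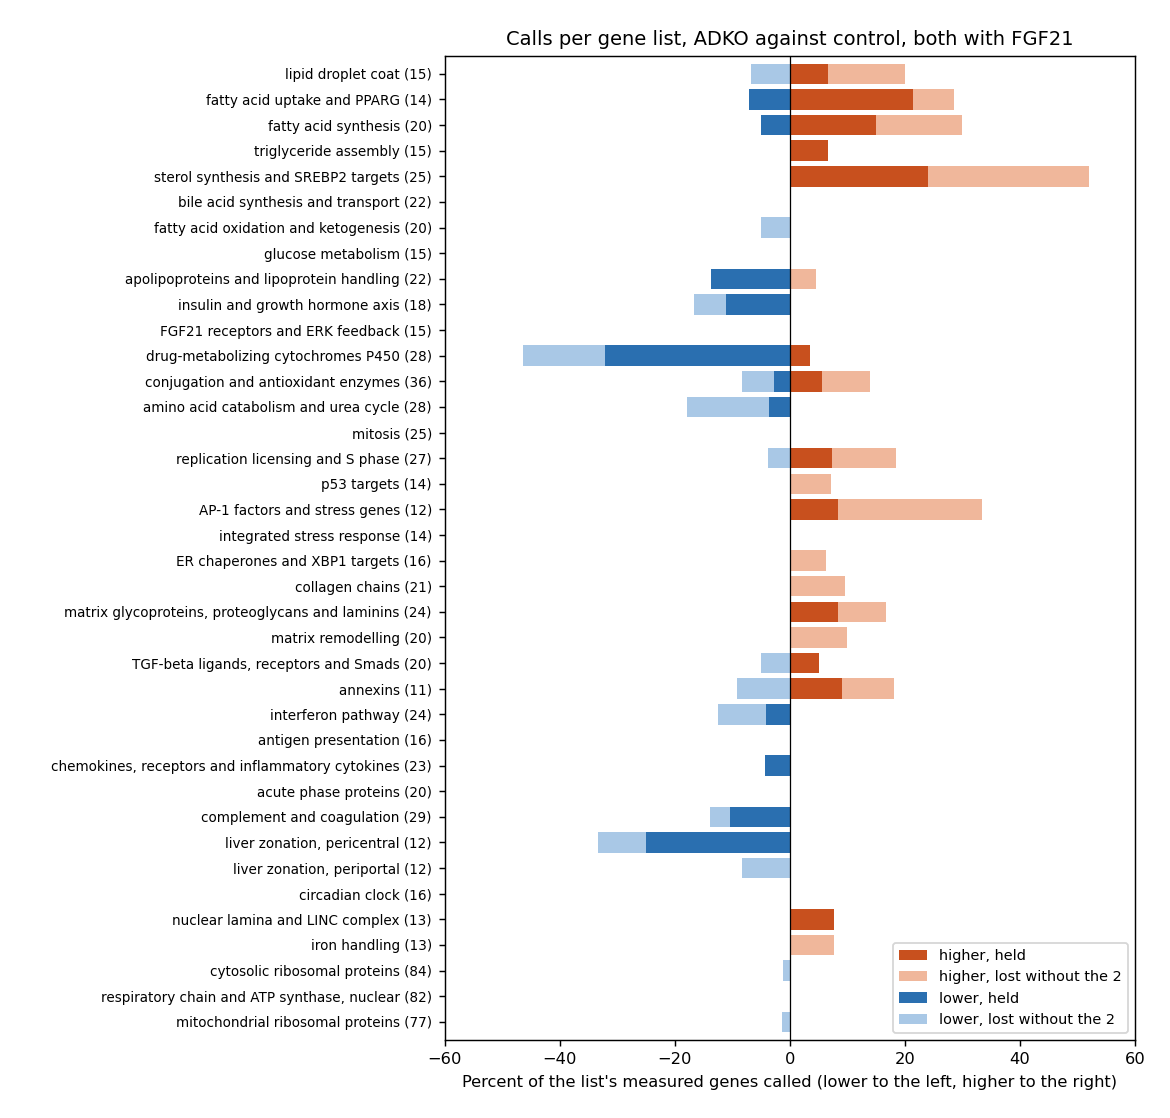
Percent of the measured genes of each of the 38 lists that were called higher (right) or lower (left) in ADKO against control with FGF21, with the number of genes in parentheses, and with darker parts for calls that were held without the 2 libraries. Sterol synthesis reaches 52.0% to the right, and cytochromes P450 hold the longest bar to the left.

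Of 22 apolipoproteins and lipoprotein handling genes, 3 were lower and held (Apom, Lipc, Lcat) and Apoa4 was higher, with a median log2 fold change of -0.106. Apom, which carries sphingosine-1-phosphate in HDL, was at 248, 311 and 414 CPM in controls and at 82.0 to 142 CPM (median 106) in ADKO. Its difference was 2.99-fold lower (log2 fold change -1.58 ± 0.163, adjusted p = 1.18e-06) and the values did not overlap. Without the 2 libraries the adjusted p was 3.79e-06. Lipc, hepatic lipase, was at 202, 228 and 260 CPM and at 65.4 to 130 CPM (2.15-fold lower, adjusted p = 0.000406). Apoa4 reached 1012 to 10740 CPM in ADKO against 178 to 344 CPM in controls, with adjusted p-values of 0.00559 and 0.0512 with and without the 2 libraries.

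Complement and coagulation genes were lower in 4 of 29 and none was higher, with 3 held. Ahsg, the plasma protein fetuin-A, was at 13478, 11288 and 13460 CPM in controls and at 4238 to 8578 CPM in ADKO (1.85-fold lower, adjusted p = 0.00198, and 0.00498 without the 2 libraries). F7, coagulation factor VII, was 1.95-fold lower (adjusted p = 0.00329) and Fetub, fetuin-B, 2.01-fold lower (adjusted p = 0.00247). The 12 pericentral genes gave 4 lower, 3 of them held (Cyp1a2, Slc1a2, Oat), and the 12 periportal genes gave 1 lower, Gls2, which was not held. Slc1a2, a glutamate transporter of pericentral hepatocytes, was 1.78-fold lower (adjusted p = 0.0209). The 18 genes of the insulin and growth hormone axis gave 3 lower, of which Lepr and Igfbp2 were held and Igfals was not (adjusted p = 0.0206 and 0.228).

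Amino acid catabolism and the urea cycle had 5 of 28 lower and 1 held, Oat, ornithine aminotransferase (1.80-fold lower, adjusted p = 0.0265), and Hpd and Agxt lost their calls without the 2 libraries. Conjugation and antioxidant enzymes had 5 of 36 higher and 3 lower, with Fmo5 and Nqo1 held higher and 1 gene held lower. Fmo5, a flavin-containing monooxygenase, was at 376, 351 and 458 CPM and at 461 to 936 CPM, with no overlap (1.80-fold higher, adjusted p = 0.0112). Fatty acid oxidation had 1 of 20 called, the lower Cyp4a10, which was not held. Bile acid genes (22), glucose metabolism (15), the integrated stress response (14), antigen presentation (16), acute phase proteins (20) and the circadian clock (16) had 0 called.

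Hepatocyte markers had 0 of 7 called. The summed levels of these markers were 135000 to 139000 CPM in controls and 85300 to 168000 CPM in ADKO, and the defining markers were measured in every library. The part of the hepatocyte share in the lower hepatocyte genes was not tested.

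Matrix, stress and cycle genes were higher in part. Of 24 matrix glycoproteins, proteoglycans and laminins, 4 were higher and 2 held, Tnc and Lamb3. Tnc, the matrix protein tenascin C, was at 0.618, 0.749 and 0.757 CPM in controls and at 2.16 to 4.19 CPM (median 2.56) in ADKO, 3.93-fold higher (adjusted p = 6.42e-05, and 0.00083 without the 2 libraries). Lamb3, a laminin chain, was at 2.76, 4.19 and 7.86 CPM and at 11.5 to 40.8 CPM (adjusted p = 0.0188, and 0.0373). Collagen chains gave 2 higher of 21, Col4a1 and Col4a2, the network collagens of basement membranes, and neither was held: Col4a2 was at 18.1, 20.1 and 19.0 CPM against 25.6 to 59.0 CPM, with adjusted p-values of 0.00507 and 0.0604. Of matrix remodelling genes 2 of 20, Timp3 and Loxl2, were higher and none was held.

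Tgfbr2, the type II TGF-beta receptor, was at 20.9, 22.1 and 22.6 CPM in controls and at 30.1 to 49.9 CPM in ADKO (log2 fold change 0.71 ± 0.143, adjusted p = 0.00376, and 0.0104 without the 2 libraries), and Inhba was lower but not held, so 1 of 20 TGF-beta genes was held. Stellate cell and myofibroblast markers had 1 of 9 called and held, Tagln (adjusted p = 0.00348), with a summed level of 262 to 298 CPM in controls and 290 to 395 CPM in ADKO. Endothelial markers had 1 of 9 called and held, Lyve1, a hyaluronan receptor, at 7.75, 7.59 and 6.93 CPM against 13 to 27.4 CPM (adjusted p = 0.00221, and 0.0409). The summed endothelial level was 374 to 399 CPM in controls and 308 to 382 CPM in ADKO. Kupffer cell markers stood at 584 to 911 CPM and 469 to 916 CPM with 0 of 8 called.

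Lipid-associated macrophage markers summed to 82.9 to 120 CPM in controls and 135 to 427 CPM in ADKO, and of 9 markers Cd9 was called (adjusted p = 0.0486) and lost without the 2 libraries. Adipocyte markers summed to 965 to 1770 CPM and 1530 to 2230 CPM, and 1 of 7, Fabp4, a fatty acid binding protein, was called and lost (adjusted p = 0.0188 and 0.123). Nearly all of that sum was Car3, at 951 to 2200 CPM, which hepatocytes also express. Adipoq, Lep, Plin1, Cfd and Retn were at most 2.71 CPM in any library, with log2 fold changes of -4.988 to -1.288, and the list median was -2.676, or -3.811 without the 2 libraries, where Retn was called lower (adjusted p = 0.0265). Erythroid markers ranged from 656 to 3150 CPM in controls and from 1200 to 7470 CPM in ADKO, and ADKO library 7 had the highest sum. B and plasma cell (23.3 to 99.3 and 18 to 44.2 CPM), neutrophil (7.80 to 8.6 and 8.40 to 17.5 CPM), skeletal muscle (0.300 to 0.815 and 0.246 to 24.5 CPM) and pancreatic acinar markers (at most 0.400 CPM) had 0 called. Ly6g, and Ctrb1, Prss2 and Pnlip among the acinar markers, were at or under the floor in all 11 libraries.

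Anxa2, an annexin that binds membranes, was at 15.5, 17.3 and 24.2 CPM in controls and at 39.9 to 161 CPM in ADKO (adjusted p = 0.0108, and 0.0417), and of 11 annexins 2 were higher and 1 lower, with Anxa2 held. AP-1 factors and stress genes gave 4 of 12 higher and 1 held, Klf6, an immediate early factor (2.17-fold higher, adjusted p = 0.00107, and 0.0155). Myc, Jun and Sprr1a lost their calls without the 2 libraries. Replication licensing genes gave 5 of 27 higher and 1 lower, with Mcm3, a subunit of the replicative helicase (1.76-fold higher, adjusted p = 0.00198, and 0.0114), and Rfc4, a clamp loader subunit (1.84-fold higher, adjusted p = 0.0304, and 0.0252), held. Interferon genes gave 3 of 24 lower, with Mx2 held (1.80-fold lower, adjusted p = 0.0108), and of 23 chemokine genes Ccl9 was lower and held (adjusted p = 0.0197, and 0.0312). Single calls came from p53 targets (Tnfrsf10b, 1 of 14), endoplasmic reticulum chaperones (Manf, 1 of 16), iron handling (Slc11a2, 1 of 13) and the nuclear lamina and LINC complex (1 of 13). That last gene, Syne3, a nesprin of the nuclear envelope, was held (adjusted p = 0.00479, and 0.0283), and the others were not. The lists with single calls had 6.25% to 7.69% of members called, beside 4.69% of genes averaging above 0 in log2 CPM.

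Mitosis genes were not called. Of 25, 0 were called in either direction with FGF21 (23 positive, median log2 fold change 0.559), whereas 21 were higher with vehicle, where the median was 1.299 (genes called with vehicle were 5.12% higher and 3.36% lower of those tested). These counts come from groups of unlike size, 8 ADKO and 3 control libraries with FGF21 and 6 and 7 with vehicle. Mki67, the proliferation antigen, was at 1.16 to 2.23 CPM in controls and 1.52 to 7.26 CPM in ADKO (adjusted p = 0.287, and 0.601 without the 2 libraries), and Mad2l1, a spindle checkpoint protein, at 2.23, 2.50 and 2.27 CPM and 2.27 to 7.17 CPM (adjusted p = 0.0967). The mean log2 CPM of the 15 members averaging 0 or more, from the mean of all 24 libraries, was -0.389 to -0.121 in the 3 controls and -0.270 to 1.212 in ADKO, and ADKO library 3 was the highest. The test of the difference between treatments, the interaction, called 0 of the 25, with 4 at an unadjusted p below 0.05, and its value was negative in 25 of 25 (median -0.638, smallest adjusted p = 0.984). The genes of the list are not independent replicates, so the shared sign is not a test.

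Respiratory and mitochondrial ribosomal genes depended on the 2 libraries, and cytosolic ribosomal genes did so in part. Of 84 cytosolic ribosomal protein genes, 1 was called (Rps28, lower, adjusted p = 0.0197) and lost without the 2 libraries (adjusted p = 0.227). The list's level was -0.218, 0.206 and 1.086 log2 CPM from the mean of all libraries in controls and -0.334 to 0.852 in ADKO, with the highest values in control library 3 and ADKO library 7. Its median log2 fold change was -0.450 with all libraries and -0.194 without the 2, with 1 and 5 positive of 84. With vehicle, in other animals, the median was -0.255 and 0 were called. The 82 nuclear genes of the respiratory chain and ATP synthase had 0 called, and their median moved from -0.180 to -0.006 (10 and 40 positive). The 77 mitochondrial ribosomal protein genes had 1 called, Mrpl15, which was lost, and their median moved from -0.157 to -0.012 (9 and 33 positive).

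**Figure D4:**
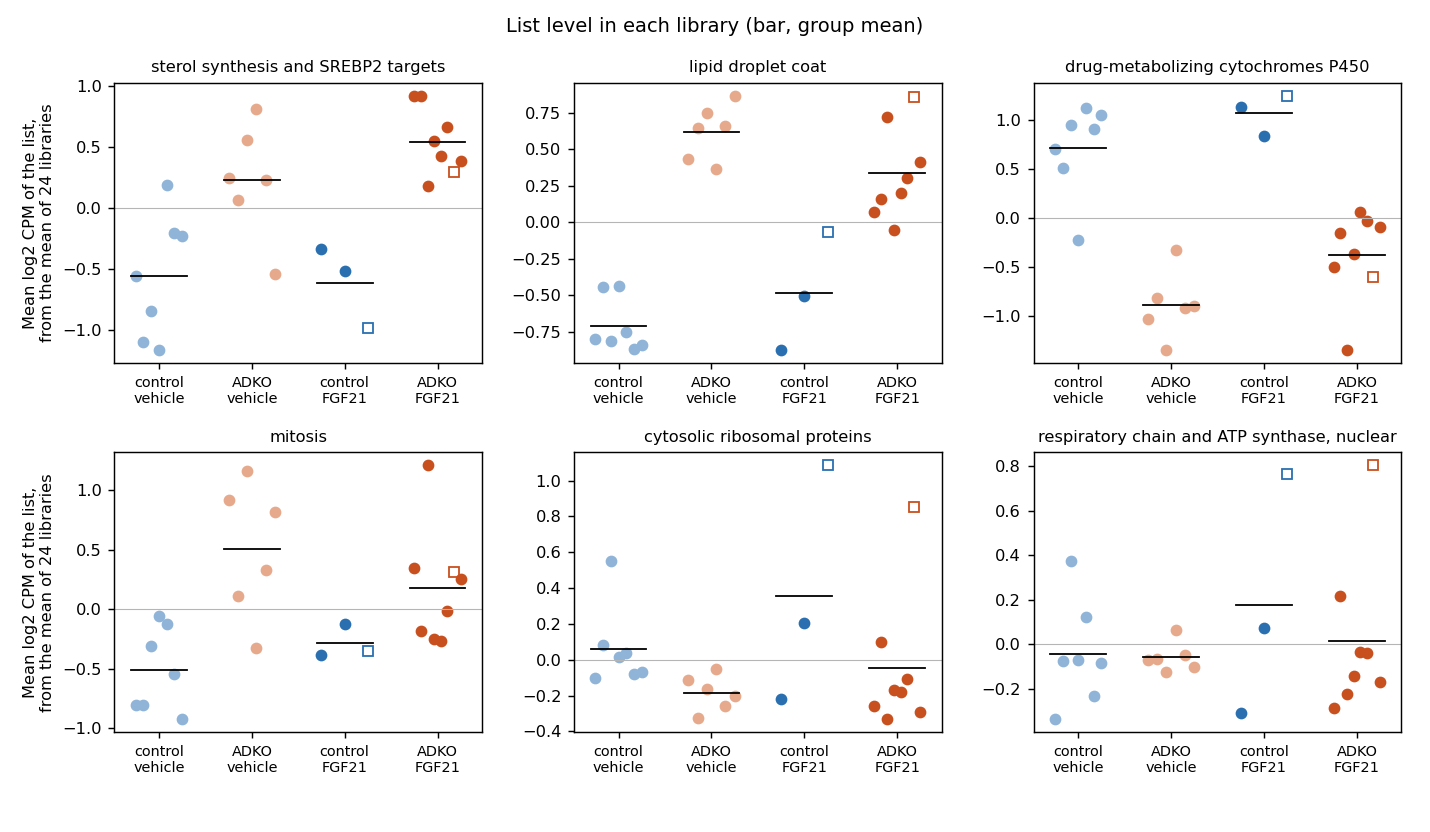
Mean log2 CPM of 6 gene lists, over members averaging 0 or more, in each of the 24 libraries, relative to the mean of all 24, by group, with a bar at each group's mean and open squares for control library 3 and ADKO library 7. Sterol and lipid droplet levels of the 8 ADKO libraries with FGF21 lie above all 3 controls and P450 levels below, whereas the 2 open squares are the highest FGF21-treated points of the ribosomal and respiratory lists.

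The genotype difference with vehicle was measured in other animals. Of the 313 held genes, 247 (78.9%) were called in the same direction with vehicle, which is 12.1% of the 2033 vehicle calls, and 301 had the same sign. In turn, of the 1227 genes higher with vehicle, 1155 (94.1%) were positive with FGF21 and 308 were called higher, and of the 806 lower with vehicle, 760 (94.3%) were negative and 203 were called lower. Positive values were 51.5% of all genes and negative values 45.9%. The median log2 fold change of these genes with FGF21 was 0.791 and -0.610, against 1.188 and -0.926 with vehicle, where they were chosen, which raises the vehicle values. Without the 2 libraries the FGF21 medians were 0.772 and -0.569. Among the single libraries, the median log2 CPM of the vehicle-higher genes over the mean of the 3 controls ranged from 0.404 in ADKO library 4 to 1.208 in ADKO library 3, and that of the vehicle-lower genes from -0.421 to -0.939 in the same 2 libraries.

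**Figure D5:**
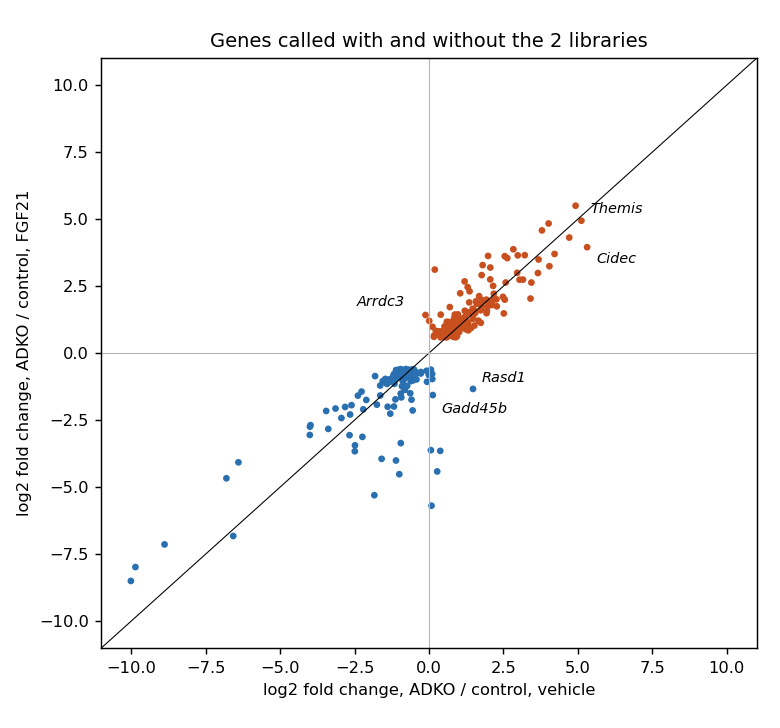
Log2 fold change of ADKO over control with vehicle (x axis) and with FGF21 (y axis) for the 313 genes called with and without the 2 libraries, orange for higher and blue for lower with FGF21, with the line of equal values. Most points lie in the lower left and upper right parts, and Rasd1, lower with FGF21 and higher with vehicle, lies in the lower right.

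The interaction called 1 gene (0.00417% of those tested) with all libraries and 6 (0.025%) without the 2, while 1165 and 1158 genes had an unadjusted p below 0.05. Rasd1, a small GTPase that is induced by glucocorticoids (ENSMUSG00000049892, chr11:59963181-59964944, minus strand), was called by both fits. It was at 4.47, 2.90 and 1.69 CPM in controls and at 0.506 to 1.76 CPM in ADKO with FGF21, and at 0.486 to 0.771 CPM in controls and 0.648 to 2.18 CPM in ADKO with vehicle. Its log2 fold change was -1.34 ± 0.308 with FGF21 (adjusted p = 0.0112) and 1.48 with vehicle (adjusted p = 0.000707), an interaction of -2.81 (adjusted p = 0.00679, and 0.000508 without the 2 libraries). All 3 controls with FGF21 had 4-digit animal numbers, against 1 of 7 with vehicle. With the number series as a covariate the interaction called 0 genes, and the log2 fold change of Rasd1 with FGF21 was -1.05 (adjusted p = 0.0726). It was -1.11 with 4-digit animals alone (adjusted p = 0.0754) and -1.34 with only the groups compared (adjusted p = 0.0606), and -0.94 without control library 1 (adjusted p = 0.132).

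The 5 genes whose interaction was called only without the 2 libraries were Gadd45b, Thbd, Gja1, Armcx4 and Gm49320, and these were named after their values were seen. Gadd45b, a stress-induced DNA damage gene, was at 8.22, 12.9 and 16.7 CPM in controls and at 2.46 to 10 CPM in ADKO with FGF21, and the 2 vehicle groups were at 3.07 to 6.08 and 3.75 to 5.81 CPM. It was held (adjusted p = 0.00198, and 4.07e-05), and its interaction had an adjusted p of 0.390 with all libraries and 0.00242 without the 2. Thbd, the thrombin receptor thrombomodulin, had interaction p-values of 0.412 and 0.000302, and control library 3, at 1.98 CPM, lay below the other 2 controls, at 7.94 and 8.09 CPM. Arrdc3, an arrestin-like adaptor, was also chosen after its values were seen. It was held higher, at 76.9, 34.1 and 56.7 CPM in controls and 101 to 214 CPM in ADKO with FGF21 (adjusted p = 0.00479), while with vehicle it was at 111 to 215 CPM in controls and 102 to 200 CPM in ADKO (adjusted p = 0.793), and its interaction was not called (adjusted p = 0.412).

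Genes gained without the 2 libraries numbered 35 higher and 34 lower. Fabp2, a fatty acid binding protein of enterocytes, was at 67.3, 72.6 and 177 CPM in controls and at 150 to 524 CPM in ADKO, with the highest values of both groups in control library 3 and ADKO library 7 (adjusted p = 0.0860, and 0.00626 without them). Vac14, Pgp, Pde4c and Ccnl1 had smaller adjusted p-values than Fabp2 without the 2 libraries, with log2 fold changes of 0.74, 0.66, -1.14 and -0.71 without the 2. Among the genes lost, those with the smallest p-values with all libraries were Cmpk1, Ndfip2, Cyp2a22, Actr2 and Nr1i3. Cmpk1, a nucleotide kinase, Ndfip2 and Actr2, a subunit of the actin-nucleating complex, kept an adjusted p below the threshold (0.00668, 0.00893 and 0.0248) and lost the call because the fold fell under 1.5.

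ADKO library 3 gave the most extreme of the 8 ADKO values in 71 of the 180 held higher genes and in 54 of the 133 held lower genes, and ADKO library 7 in 43 and 28. Without ADKO library 3, 286 of the 313 held genes (91.4%) were called in the same direction. Some held calls named above also ended when 1 control was left out, in fits that rest on 2 controls. Several of them ended without either of 2 controls, so no single control carried those. Leaving out control library 1 ended the calls of Lamb3, Oat, Slc1a2, Rfc4, Anxa2 and Rasd1. Leaving out control library 2 ended those of Pls1, Fmo5, Slc27a1, Lamb3, Oat, Slc1a2, Rfc4, Anxa2 and Mx2, and leaving out control library 3 alone those of Slc27a1, Ccl9 and Syne3. All 3 controls had 4-digit animal numbers, as had 4 of the 8 ADKO mice. Restricted to 4-digit animals, 231 of the 313 held genes (73.8%) were called. Among the calls lost were those of Cyp3a41a, Lamb3, Oat, Slc1a2, Rfc4, Ccl9 and Rasd1. When only the 2 groups compared were fitted, 210 of the 313 (67.1%) were called, and among the genes lost were Themis, Cidec, Cyp2c69, Slc22a26 and F7. With the length slope of each library as a covariate, 310 of the 313 (99.0%) were called in the same direction.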

How the data were processed

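Liver RNA was sequenced from 24 mice as polyA-selected, strand-marked libraries, and groups follow the labels, where Rescue was read as FGF21 from the study's methods. The authors deposited raw whole-number counts of reads per gene, and per the submitters' processing notes cutadapt 4.8, FastQC 0.11.8, STAR 2.7.8a and RSEM 1.3.3 were used with GRCm38. How RSEM estimates became whole numbers is not given in the sources used here. Near-identical copies can share reads, and totals limit precision to a floor of 3 counts.

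The 4 groups were fitted together, without a low-count filter, with edgeR 4.0.16 (TMM, quasi-likelihood test) in R 4.3.3, and p-values were adjusted by Benjamini-Hochberg over 23972 genes. The fit was tested on simulated data. Alternatives were DESeq2 1.42.0, its size factors, filterByExpr, no fold threshold, only the groups compared, 2 covariates, 4-digit animals and libraries left out. No pair of 31 within-group library pairs was alike (chi-square per degree of freedom 14.1 to 196). Animals were separate mice by their numbers.

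Named genes are the 8 largest non-overlapping held changes in each direction, up to 3 called members of each list by smallest p (or 1 uncalled member), 5 lost and 5 gained genes, the interaction gene, Lmna, Fgf21 and Klb. Other list members and markers that are named were chosen after their values were seen. The members and the 38 gene lists and 13 marker lists were chosen with earlier results of these data known. Some genes that this rule names are not reported here.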

Additional observations from a re-analysis of the deposited data

Results flagged for a closer look

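In a group of 8, a library was named when its gap to the nearest other value exceeded the Dixon critical value as a share of the group's range. The 8 ADKO libraries with FGF21 were examined for 95 genes and 7 library measures, and chance alone names about 1 group in 20. A far library was found for 17 of the genes. The shares below are the gap over the range, taken for genes on log2 CPM although CPM are printed beside them. No explanation was weighed. ADKO library 3 lay far above the other 7 for Pls1 (10.5 CPM against 1.48 to 3.7 CPM, gap 0.539), Gprc5b (16.1 CPM against 5.47 to 8.87 CPM, gap 0.554), Gpam (342 CPM against 137 to 189 CPM, gap 0.648), Mcm3 (11 CPM against 6.64 to 7.9 CPM, gap 0.659), Mcm2 (13.9 CPM against 4.52 to 5.7 CPM, gap 0.794) and Loxl2 (15 CPM against 6 to 8.61 CPM, gap 0.606). ADKO library 3 lay far below the other 7 for Igfbp2 (31.9 CPM against 78.9 to 165 CPM, gap 0.550), Lipc (65.4 CPM against 96.4 to 130 CPM, gap 0.564), Igfals (35.2 CPM against 80.6 to 95.6 CPM, gap 0.829), Hpd (879 CPM against 1830 to 3094 CPM, gap 0.583), Agxt (98.1 CPM against 189 to 320 CPM, gap 0.555), Mx2 (1.87 CPM against 3.02 to 4.41 CPM, gap 0.555), Fgg (1523 CPM against 2100 to 2757 CPM, gap 0.541) and Ahsg (4238 CPM against 6401 to 8578 CPM, gap 0.585). ADKO library 7 lay far above the other 7 for Rfc4 (6.11 CPM against 2.75 to 3.82 CPM, gap 0.593) and Ccl9 (42.8 CPM against 13.9 to 23.5 CPM, gap 0.532). ADKO library 7 lay far below the other 7 for Slc27a1 (4.94 CPM against 9.53 to 12.7 CPM, gap 0.694). ADKO library 7 also stood apart in the share of counts from the mitochondrial genome, at 9.0% against 5.21% to 6.43% (gap 0.679). ADKO library 7 also stood apart in the slope of log2 CPM on log2 exonic length, at -0.331 against -0.109 to 0.0830 (gap 0.536). The genotype difference of Rasd1 differed between FGF21 and vehicle by -2.81 on the log2 scale (edgeR quasi-likelihood interaction, adjusted p = 0.00679), with opposite directions in the 2 treatments.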

How the results depend on the processing

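Of the counts above, the 387 higher and 303 lower genes became 207 and 137 when only the 2 groups compared were fitted, 255 and 154 with 4-digit animals alone, and 215 and 167 without both libraries. With the animal number series as a covariate 196 were lower. Leaving out 1 library gave 194 to 501 higher and 145 to 648 lower, the lowest higher counts without control library 3 (194) or 2 (200) and the most lower genes without ADKO library 7. The 180 held higher genes became 362 with DESeq2, 304 with the length slope as a covariate, 114 with 4-digit animals and 24 to 212 without 1 library, and the 133 held lower genes 215, 207, 54 and 25 to 146. Held lower genes also fell to 85 with only the groups compared and 73 with the number series. Without control library 1 (24 and 25) or 2 (24 and 38) the fit without the 2 libraries has 1 control, assumed to vary like the other groups. In the vehicle contrast, same direction as held, the 247 genes became 461 with DESeq2, 402 with the slope, 150 with the number series, 143 with 4-digit animals and 41 to 289 without 1 library. The interaction call of 1 gene became 11 with DESeq2, 2 with DESeq2 size factors, 2 with filterByExpr, 3 with the slope, 0 with the number series, 6 without both libraries and 0 to 5 without 1 library. Called both ways, it became 8, 2, 2, 2, 0 and 0 to 4 in the same order, the 6 left out. The causes were not tested. No called value changed sign in the alternatives run, whereas the uncalled log2 fold changes of Fgf21 (-0.056 to 0.626) and Klb (-0.138 to 0.281) and some list medians near 0 did. Of 49 held named genes, 30 were called in every one of up to 20 settings. No paired analysis was possible because animal numbers name single mice and no number is shared between groups.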
